A study of Mus musculus with 12 samples.

Results

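The copy-number segments of mouse chromosomes 13 and 19 were described in a pair of primary murine pancreatic ductal adenocarcinoma (PDAC) lines, 15376T and 14837T. The members were chosen from the readout itself. The rule took each row of the segment and gene tables that lies on chromosome 13 or 19, because the chromosome mean of the segment log2 ratio differed between the lines there. The libraries are labelled WES-15376T and WES-14837T and are called here by their lines. The rule gave 12 of the 191 segments of 15376T and 11 of the 235 segments of 14837T. Where the borders of both lines were used to cut the chromosomes, 19 of 363 autosomal pieces covered in both lines were members, 9 on chromosome 13 and 10 on chromosome 19. The gene tables held 194 member genes of 7960 in 15376T, each on chromosome 19. They held 918 of 4755 in 14837T, of which 458 were on chromosome 13 and 460 on chromosome 19.

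Both lines came from C57BL/6 mice that carried p48-Cre, ROSA_rtTA and a single floxed p53 allele (p53 L/+), and the labels give both the genotype WT. In these mice Cre is driven by the promoter of p48 (Ptf1a), which is active in the pancreas, and rtTA is an activator that responds to doxycycline, and the lines were kept in medium with doxycycline. Each line was measured by whole-exome sequencing (WES) of genomic DNA as 1 library, so no value below has a replicate and no test between the lines was possible. The capture kit was designed for human exons, which leaves the mouse genome unevenly covered. Coordinates are those of mm10 (GRCm38), counted from 1.

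In WES, the reads that fall in small intervals of the genome (bins) are counted and set against a reference, and neighboring bins of like coverage are joined into a segment. A log2 ratio of 0 stands for 2 copies. In a pure diploid sample a lost copy lowers the ratio and an added copy raises it, and mixed cells or a ploidy other than diploid pull the ratio toward 0. The integer copy numbers in the tables followed fixed log2 limits, with a gain called above 0.2 and a loss below -0.25. The B-allele fraction (BAF) is the share of reads at variant sites that carry the non-reference base, and it is measured apart from the log2. An inbred mouse is homozygous at almost every site, so most of its genome has few informative sites. Chromosome 19 is the smallest mouse autosome and is rich in genes. Chromosome 13 carries a cluster of let-7 genes, the microRNAs whose maturation Lin28b blocks, and large families of histone, prolactin and serpin genes.

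MicroRNAs are the members whose sequence itself carries the function, because bases 2 to 8 (the seed, in capitals) pair with target transcripts. Of the 18 miRNA genes in the list used here, 12 lie on chromosome 13 and 6 on chromosome 19. The mature forms below, from RefSeq on GRCm38.p6, are 1 arm for most loci of the list. The loci lie on the parts of both chromosomes where the call differed between the lines and on the shared gain. The calls given for each group are those of the segments that hold these loci. No miRNA level was analysed here, so an effect on a seed was not tested. The first group lies on chromosome 13 and was called at 2 copies in 15376T and at 1 copy in 14837T.
mmu-let-7a-5p: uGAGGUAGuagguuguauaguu
mmu-let-7d-5p: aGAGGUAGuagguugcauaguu
mmu-let-7f-5p: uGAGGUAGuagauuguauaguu
mmu-miR-7a-5p: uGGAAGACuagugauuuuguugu
mmu-miR-27b-3p: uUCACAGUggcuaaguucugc
mmu-miR-24-3p: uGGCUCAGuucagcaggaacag
mmu-miR-9-5p: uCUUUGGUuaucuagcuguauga
mmu-miR-449a-5p: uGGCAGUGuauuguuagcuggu
mmu-miR-449c-5p: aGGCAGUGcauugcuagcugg

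The second group lies on chromosome 19 and was called at 2 copies in 15376T and at 3 copies in 14837T.
mmu-miR-204-5p: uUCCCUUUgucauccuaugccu
mmu-miR-101b-3p: gUACAGUAcugugauagcu
mmu-miR-107-3p: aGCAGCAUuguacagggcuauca
mmu-miR-146b-5p: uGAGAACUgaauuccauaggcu

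A last pair, on proximal chromosome 19, was called at 3 copies in both lines.
mmu-miR-192-5p: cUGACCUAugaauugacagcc
mmu-miR-194-5p: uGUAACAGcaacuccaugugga

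The 3 let-7 forms of chromosome 13 shared the seed GAGGUAG. Over the genome, RefSeq lists 13 mature entries with this seed, from 13 genes. Distinct mature forms among these entries were not counted. Mirlet7d, Mirlet7f-1 and Mirlet7a-1 lie within 2.26 kb of each other on the minus strand (chr13:48536012-48538272), and no other annotated gene overlaps them. miR-449a and miR-449c shared the seed GGCAGUG, and both genes lie inside Cdc20b (chr13:113035983-113036091 for Mir449c and chr13:113037534-113037624 for Mir449a). Mir7-1 (chr13:58392779-58392886) lies inside Hnrnpk. Mir27b (chr13:63300712-63300784) and Mir24-1 (chr13:63301208-63301275) lie inside Aopep, and Mir9-2 (chr13:83738814-83738885) inside the long non-coding RNA gene C130071C03Rik. On chromosome 19, Mir204 (chr19:22750605-22750672) lies inside Trpm3, Mir101b (chr19:29135279-29135375) inside Rcl1, Mir107 (chr19:34820687-34820773) inside Pank1 and Mir146b (chr19:46342762-46342870) inside the long non-coding RNA gene Gm36493. Mir194-2 (chr19:6264643-6264728) and Mir192 (chr19:6264844-6264932) are neighbors with no overlapping gene. Whether these positions are exonic or intronic was not determined, because only gene bounds were used. Those of the listed miRNA genes with a row of their own in 14837T had 1 bin each. On chromosome 13 their read depth ran from 47.8 to 91.4, and Mir194-2, Mir192 and Mir146b had 28.7, 36.8 and 64.6. The mean depth at 2 copies was 47.5. Capture differs between genes, and no depth of these loci was listed in the other line for comparison. Whether these single bins followed the segment calls was therefore not tested.

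The libraries were of similar depth. The mean read depth over autosomal segments was 43.4 in 15376T and 47.5 in 14837T, and 46.0 and 47.5 in segments called at 2 copies. The SD of log2 among autosomal segments at 2 copies was 0.090 in 15376T (103 segments) and 0.095 in 14837T (96 segments). Over the 98 pieces of at least 1 Mb that were at 2 copies in both lines, the log2 difference between the lines had an SD of 0.103. These SDs are a spread between places in the genome and are not a replicate error.

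Chromosome 13 had a length-weighted mean log2 of -0.038 in 15376T and -0.38 in 14837T. The difference, 14837T minus 15376T, was -0.34, and it was the lowest of the 19 autosomes. Weighted by bins, the means were -0.034 and -0.37 with a difference of -0.34. Chromosome 19 had a length-weighted mean of 0.049 in 15376T and 0.39 in 14837T. The difference of 0.34 was the 18th in rising order, with chromosome 9 above it at 0.38 and chromosome 4 just below it at 0.33. Weighted by bins, the means were 0.14 and 0.44, the difference fell to 0.30, and chromosome 19 was the 17th. These differences chose the members and are given as a description only.

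The read depth, which is set against no reference sample, gave differences of -0.30 for chromosome 13 and 0.31 for chromosome 19. Each value is the log2 of the mean depth over the depth of segments at 2 copies in the same library. On this scale chromosome 13 was the lowest of the 19 autosomes and chromosome 19 was the 16th. The depth enters the log2 that chose the members, and the 2-copy segments are set by the log2 calls. These ranks are therefore a description only. The other 17 autosomes ranged from -0.16 to 0.38 by length, with a median of 0.050 and an SD of 0.160. Chromosomes 4 and 9 reached their differences from another side than chromosome 19. Their length-weighted means were -0.59 and -0.37 in 15376T and -0.26 and 0.0095 in 14837T, so there 15376T was the line farther from 0.

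**Figure D1:**
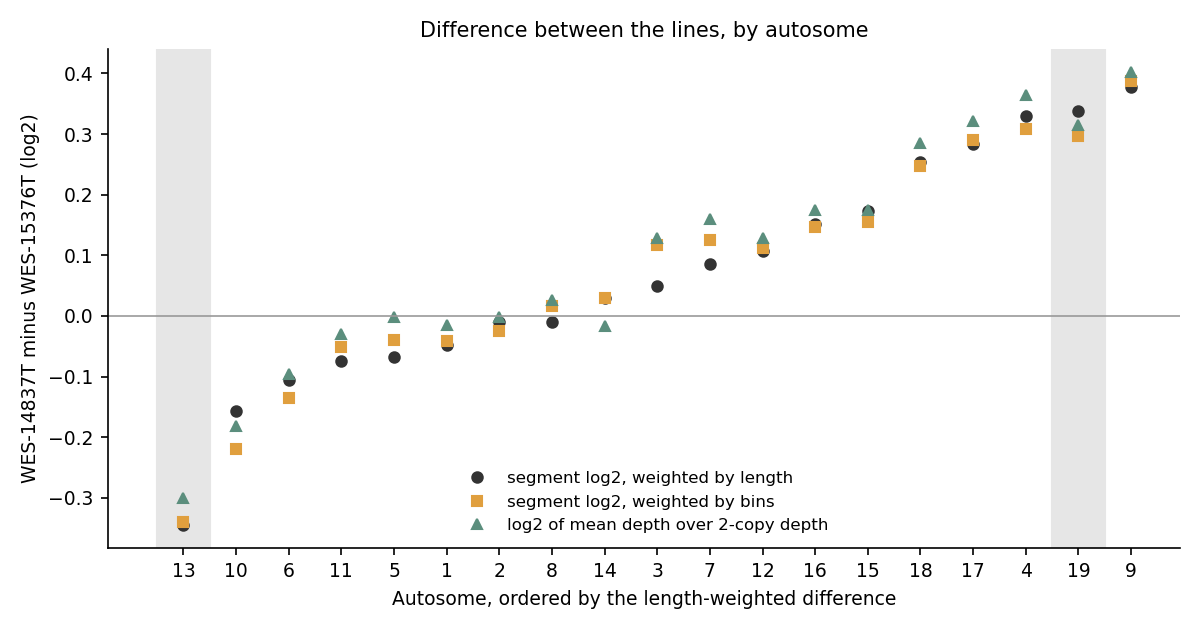
Difference between the lines (14837T minus 15376T, log2) for each of the 19 autosomes, which are ordered along the x axis by the length-weighted value; circles are means weighted by length, squares means weighted by bins and triangles the log2 of depth over the depth at 2 copies. Chromosomes 13 and 19 are shaded, and chromosome 13 is lowest in each of the 3 measures (-0.34, -0.34 and -0.30) while chromosome 19 (0.34, 0.30 and 0.31) lies below chromosome 9 in each. The 3 measures come from the same reads.

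Within chromosome 13, 15376T stayed near 2 copies over almost its whole length. Its 6 segments had log2 values between -0.091 and 0.39. The first, from Gdi2 to Prss16 (chr13:3403423-22003354, 1225 bins), had a log2 of -0.051. A short segment from Prss16 to Btn1a1 (chr13:22005041-23460658, 56 bins) had 0.39 and was called at 3 copies. The long one that followed (chr13:23461446-65559739, 3111 bins, Btn1a1 to Zfp369) had -0.036. The remaining 3 segments had -0.091 (chr13:66007704-93862387, 1501 bins), 0.081 (chr13:93871766-101397954, 761 bins) and -0.032 (chr13:101398663-119886058, 1002 bins). The segment that starts at Pik3r1, the regulatory subunit gene of PI3K, is the last of these. The 5 segments at 2 copies lay between -0.091 and 0.081, and the short segment stood apart from them.

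14837T shared the proximal level and left it at a single border. Its first segment, from Gdi2 to Prl5a1 (chr13:3403423-28812720, 1729 bins), had a log2 of -0.075 and was called at 2 copies. The next began at Sox4, a transcription factor gene of progenitor cells (chr13:28952065-65559739, 2663 bins, to Zfp369), and had -0.47. It was followed by -0.53 from 2410141K09Rik to Arsb (chr13:66007704-93807718, 1499 bins) and by -0.38 from Arsb to Isl1 (chr13:93808219-116303368, 1625 bins). The last segment, from Isl1 to Tmem267 (chr13:116305167-119886058, 140 bins), had -0.62. All 4 segments beyond Sox4 were called at 1 copy. Their log2 values had an SD of 0.098, close to the spread among autosomal segments at 2 copies. The depth of the same segments against the 2-copy depth was -0.47, -0.49, -0.26 and -0.66 on the log2 scale, so the segment from Arsb to Isl1 was the highest and the last the lowest on both scales.

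**Figure D2:**
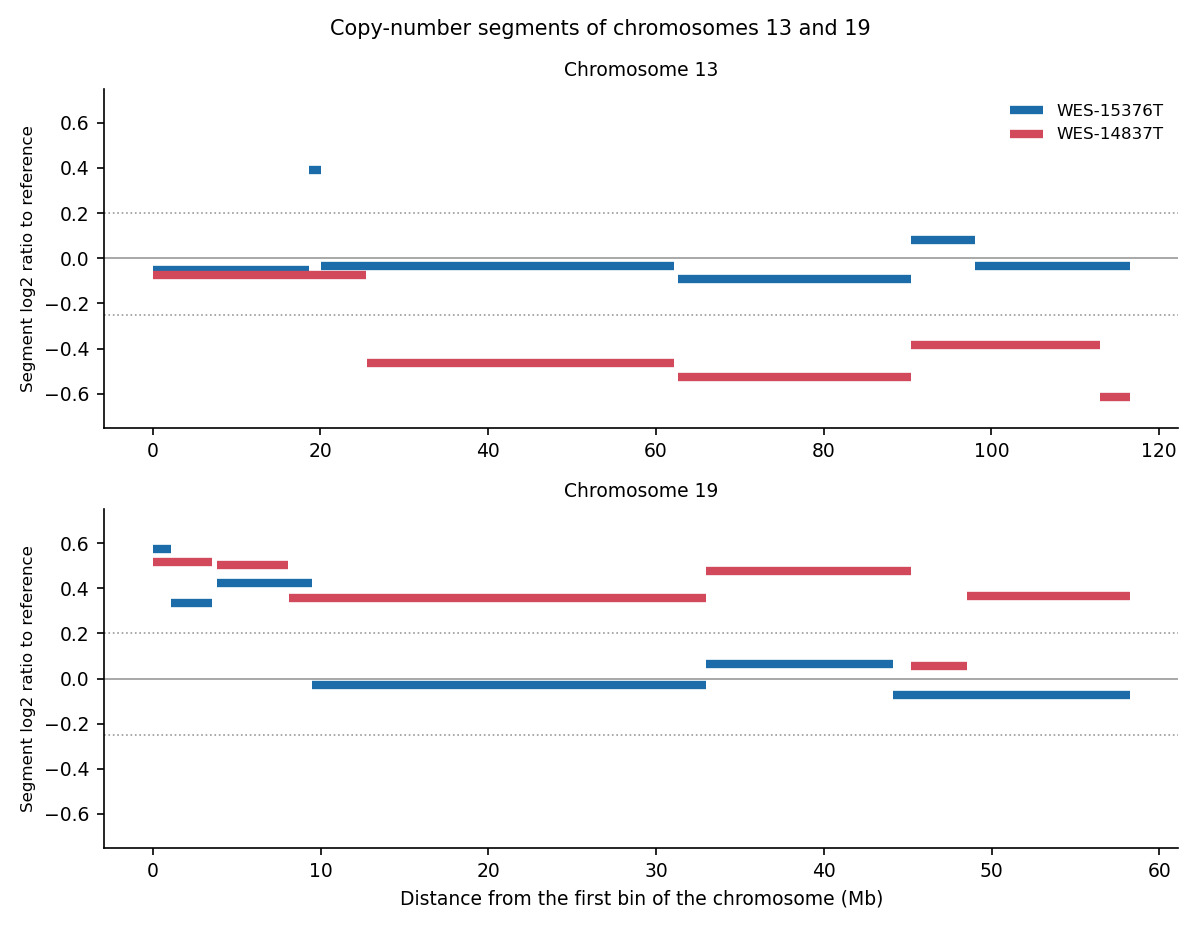
Segment log2 ratio (y axis) along chromosomes 13 (top) and 19 (bottom), with the distance from the first bin of the chromosome in Mb on the x axis; blue bars are segments of 15376T, red bars those of 14837T, and the dotted lines mark the limits of 0.2 for a gain and -0.25 for a loss. On chromosome 13 the lines lie close together before the Sox4 border except at the short segment of 15376T at 0.39, and beyond it 14837T lies lower in each segment, and on chromosome 19 both are gained up to the end of the 15376T gain, beyond which 14837T lies higher.

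Cut at the borders of both lines, chromosome 13 gave 9 pieces over 115.9 Mb. A difference of -0.3 or lower was found in 6 of the 9 pieces, which made up 91.9 Mb or 79.3% of the length, with values from -0.58 to -0.35. In 1 Mb windows, 92 of 117 on chromosome 13 were at or under -0.3, against 9.03% of the 2392 autosomal windows. The rule used this contrast, and nothing is read from the count. Before the Sox4 border, the mean log2 over 25.4 Mb was -0.023 in 15376T and -0.075 in 14837T, a difference of -0.052. Beyond it, over 90.5 Mb, the means were -0.043 and -0.47, a difference of -0.43. Of the 3 pieces before that border, the one over the short gained segment of 15376T differed by -0.47 and the flanking pieces by -0.024 and -0.039.

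Chromosome 13 was called lost over 78.1% of its length in 14837T and over 0% in 15376T. Of its 117 windows, 91 were in a lost segment in 14837T, against 29.6% of autosomal windows. Of 814 RefSeq protein-coding genes placed on the chromosome, 577 lay in a lost segment in 14837T, against 29.8% of all such autosomal genes. In 15376T, 45 of the 814 lay in the short gained segment, against 9.05% of autosomal genes, and 0 lay in a lost one, against 30.6%.

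The gene table understates this loss. It lists a gene only where the absolute log2 of its segment is at least 0.4, so the segment from Arsb to Isl1, at -0.38, contributed no gene although it was called at 1 copy and names 144 genes. The listed genes were 303 in the segment that starts at Sox4, 143 in the segment that ends in Arsb and 12 in the last one. Of the 458, 270 had at least 5 bins. No chromosome 13 gene was listed for 15376T, since the short segment at 0.39 also lies just under the limit. These segments at -0.38 and 0.39 are the members just outside the limit, and the nearest listed member of chromosome 13 is at -0.47.

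The counts of the lists that follow are to be read against the 70.9% of the coding genes of chromosome 13 and the 29.8% of all autosomal ones that were lost in 14837T. Nothing particular to a list is read from them. Of 23 receptors, ligands and kinases in the list, 21 were called at 1 copy in 14837T and 23 at 2 copies in 15376T. The exceptions in 14837T were Gli3, the Hedgehog transcription factor, and Inhba, which encodes an activin subunit, both in the first segment at -0.075. Ptch1, the Hedgehog receptor that restrains the pathway, was at -0.036 in 15376T and -0.47 in 14837T, with 24 bins of its own. Rasa1, a GTPase-activating protein that turns Ras off, was at -0.091 and -0.53, with 25 bins. Map3k1, a kinase upstream of JNK, Pik3r1 and Il6st, the gp130 subunit of interleukin-6 receptors, were each at -0.032 and -0.38. Fgf10, a ligand of pancreatic bud growth, lies in the last segment and was at -0.032 and -0.62. Over the 23 genes the median log2 was -0.036 in 15376T and -0.47 in 14837T.

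All 16 genes of the cell cycle, telomere and DNA repair list lay beyond the border and were called at 2 copies in 15376T and 1 copy in 14837T. Tert, the catalytic subunit of telomerase, was at -0.091 and -0.53 over 16 bins. Msh3, a mismatch repair protein, had the same segment values over 30 bins. E2f3, a transcription factor of S-phase entry, was at -0.036 and -0.47. Ccnb1, which encodes the mitotic cyclin B1, and Cdk7, the kinase that activates other cyclin-dependent kinases, were at 0.081 and -0.38. These values belong to the segment and not to the single gene, so members of 1 segment carry the same number.

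Of 14 genes for transcription and chromatin, 13 were at 1 copy in 14837T. Klf6, a zinc finger factor, was at -0.051 and -0.075 and was called at 2 copies in both lines. Sox4 and Isl1 lie on the borders themselves and their values were taken from the gene table, which lists Sox4 at -0.47 from 1 bin and Isl1 at -0.62 from 3 bins. Isl1, a factor of islet development, has bins on both sides of the border in 14837T. Irf4, Foxc1, Jarid2 and Nsd1 followed the Sox4 segment at -0.47, and Mef2c the next one at -0.53.

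Gene families fell on different sides of the same border. The 8 Akr1c genes, which encode aldo-keto reductases of steroid metabolism, and the 26 genes whose names start with Prl, the prolactin family, were at 2 copies in both lines. Of 56 Hist1 histone genes, 55 were at 2 copies in 14837T, and 1 lay past the border. In 15376T, 5 of the 56 were in the short gained segment. The 17 Serpinb genes, protease inhibitors, and the 7 Naip genes, sensors of bacterial proteins, were at 1 copy in 14837T and at 2 copies in 15376T. Of 39 genes whose names start with Zfp, 36 were at 1 copy in 14837T. The members of such families resemble each other, and reads may be shared between them, so single family genes are uncertain.

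The short gained segment of 15376T coincided with a family of that kind. RefSeq places 75 Vmn1r genes and pseudogenes, receptors of the vomeronasal organ, within it. The segment names 15 of them, and it has 38.5 bins per Mb against 65.9 and 73.9 in its neighbors. Its mean depth was 57.2, against 47.6 and 44.5 in the neighbors. The same interval had no border of its own in 14837T, where it was part of the first segment at -0.075. The part of shared reads in this gain was not tested.

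The borders were compared between the lines. 15376T had 5 borders on chromosome 13 and 14837T had 4, of which 2 in each line lay within 0.1 Mb of a border of the other. One was identical, between Zfp369 and 2410141K09Rik, and it falls at a gap of 448 kb without bins (chr13:65559739-66007704). The step across it was -0.055 in 15376T and -0.060 in 14837T. The other lies in Arsb, a lysosomal sulfatase gene, where the borders were 0.0591 Mb apart and the steps were 0.17 and 0.14. Over all autosomes, 38 of 164 borders in 15376T and 38 of 205 in 14837T were shared by this measure, and 25 were identical. Of 19 autosomal borders at gaps of more than 200 kb in each line, 18 were identical. The border before Sox4 spans 139 kb without bins and has no counterpart within 5.42 Mb in 15376T.

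The BAF was not used by the rule. Along chromosome 13 it was high proximally and low distally in both lines. In 15376T the 6 segments had BAF values of 0.304, 0.183, 0.294, 0.162, 0.0533 and 0.0376 in order. In 14837T the first 4 had 0.412, 0.676, 0.10 and 0.0342, and the last, with 140 bins, had none. The autosomal median, weighted by length, was 0.0770 for 15376T and 0.0606 in 14837T. A BAF over 0.25 was found in 28 of 158 autosomal segments with a value in 15376T and in 12 of 193 in 14837T. Both lines therefore had BAF values over 0.25 on either side of the short Vmn1r segment, and both fell below 0.2 at the shared gap after Zfp369.

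A single BAF is given per segment, so a change in BAF can be seen only at a segment border. The BAF of 14837T differed between the segments on either side of the Sox4 border. It went from 0.412 before the border to 0.676 beyond it, while 15376T had 0.294 over the same bases. The value of 0.676 lay above that of 97.6% of the autosomal length with a BAF in 14837T. Of 54 lost autosomal segments with a BAF in 14837T, 2 had a value over 0.5, against 7 of all 193 autosomal segments with a BAF. In 15376T, 0 of 33 lost segments had one, against 8 of all 158. In the segments beside the border, the authors' allele copy numbers in 14837T were 1 and 1 before it and 1 and 0 beyond it. In 15376T they were 1 and 1 on both sides. After the shared gap past Zfp369 they were 2 and 0 in 15376T to the end of the chromosome. In 14837T they stayed at 1 and 0 there, and the last segment had none. A total of 1 copy can only be split into 1 and 0, so in the lost segments these numbers follow from the total. In the lost segments further on, the BAF of 0.10 and 0.0342 lay near the autosomal median, and the corresponding values of 15376T at 2 copies were 0.162 and between 0.0376 and 0.162. Where a mouse has few informative sites, a low BAF is found with or without a loss, and these cases cannot be told apart. The number of variant sites behind each BAF was not part of the tables.

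**Figure D3:**
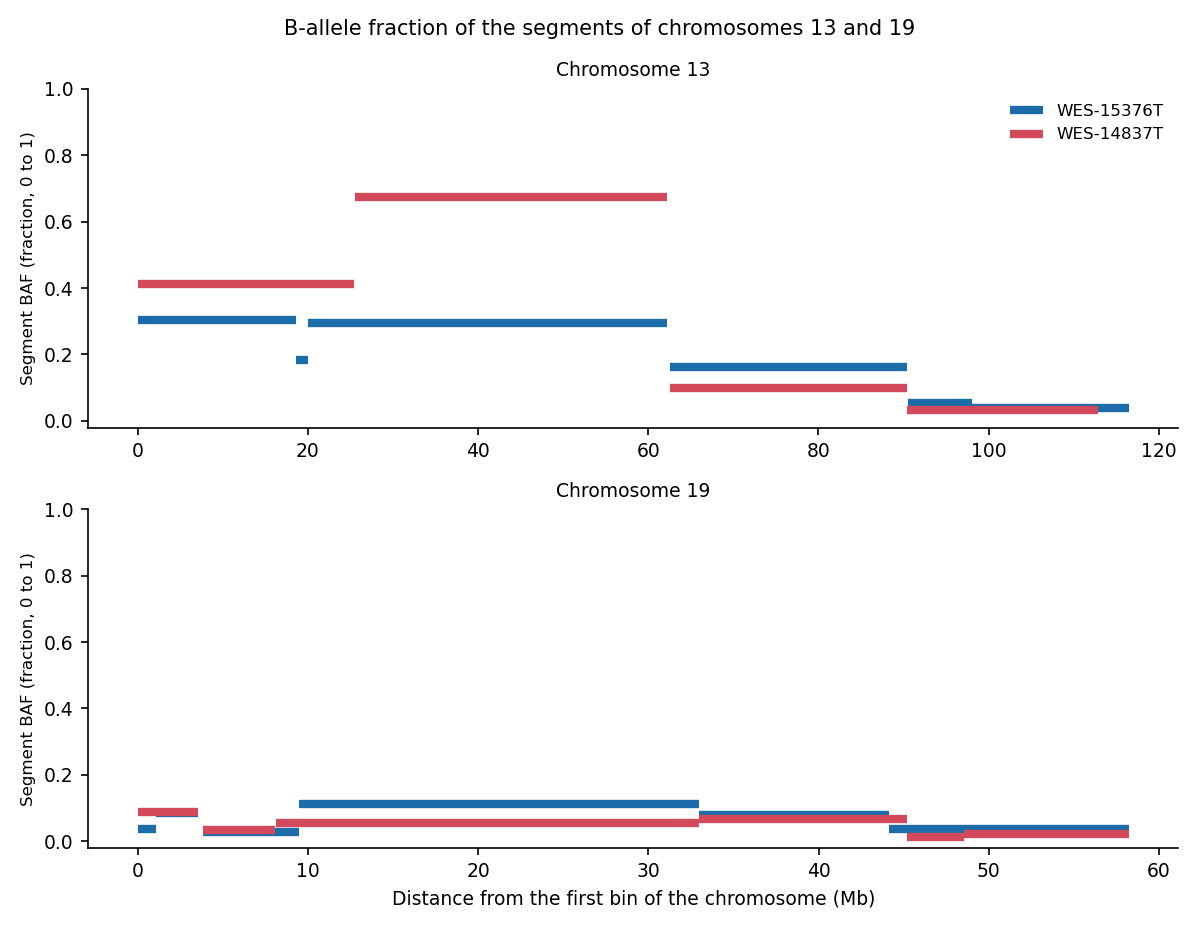
Segment BAF (y axis, a fraction from 0 to 1) along chromosomes 13 (top) and 19 (bottom) by distance from the first bin in Mb; blue bars are 15376T and red bars 14837T. On chromosome 13 the BAF is high proximally, rises from 0.412 to 0.676 at the Sox4 border in 14837T and is at most 0.162 after the shared gap, and on chromosome 19 each bar is at or under 0.111.

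On chromosome 19 the lines shared a gain at the proximal end and differed beyond it. 15376T had 3 gained segments, with a log2 of 0.58 from Ighmbp2 to Cabp2 (chr19:3000501-4087182, 243 bins), 0.33 from Cdk2ap2 to Slc22a12 (chr19:4097376-6542785, 1129 bins) and 0.42 from Rps6ka4 to Mpeg1 (chr19:6814116-12463809, 1199 bins). The other 3 segments were at 2 copies, with -0.030 from Dtx4 on (chr19:12469472-35959787, 1577 bins), 0.065 from Htr7 to Calhm2 (chr19:35960288-47135925, 1841 bins) and -0.071 from Calhm1 on (chr19:47141022-61227377, 1099 bins). The lowest gained segment was thus at 0.33 and the highest at 2 copies at 0.065.

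14837T had 5 of 6 segments gained. They had a log2 of 0.52 from Ighmbp2 to Slc22a12 (chr19:3000501-6542785, 1372 bins), 0.50 from Rps6ka4 to Ms4a8a (chr19:6814116-11081099, 983 bins) and 0.36 from Ms4a20 to Htr7 (chr19:11096882-35960437, 1794 bins). Then followed 0.48 from Htr7 to Cfap58 (chr19:35964339-48205627, 2022 bins) and, at the distal end, 0.37 from Ins1 on (chr19:51543580-61227377, 829 bins). These 5 log2 values had an SD of 0.076 and stand for 2.86, 2.84, 2.56, 2.78 and 2.58 copies in a pure diploid sample. Between the last of them lay a segment at 2 copies with 0.058 (chr19:48206128-51543579, 88 bins).

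The interval at 2 copies names 3 genes, Sorcs3 and Sorcs1, which encode sorting receptors of the VPS10 family, and Gm26629. Its bin density was 26.4 per Mb, against 165 and 85.6 in its neighbors. Its mean depth was 35.5, against 71.1 and 63.5 in its neighbors, and lay 0.42 below the 2-copy depth on the log2 scale while its log2 ratio was 0.058. In 15376T the same bases were part of the distal segment at -0.071, a difference of 0.13 between the lines, which is the only piece of chromosome 19 over 1 Mb and beyond the 15376T gain where the difference was under 0.3.

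Chromosome 19 gave 10 pieces over 57.9 Mb. A difference of at least 0.3 was found in 4 of them, which made up 45.4 Mb or 78.4% of the length, with values from 0.39 to 0.55. Among 58 windows, 44 were at or over 0.3, against 14.1% of autosomal windows, and again the rule used this contrast. Over the 9.17 Mb called gained in both lines, the mean log2 was 0.42 in 15376T and 0.49 in 14837T, a difference of 0.071. Over the 48.7 Mb beyond, the means were -0.020 and 0.37, a difference of 0.39. The differences within the shared gain ran from -0.064 to 0.18, so the lines crossed there.

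14837T was called gained over 94.2% of chromosome 19 and 15376T over 15.8%. By windows, 54 of 58 were gained in 14837T against 18.9% of autosomal windows, and 9 of 58 in 15376T against 9.2%. The same 9 windows were gained in both lines, against 6.98% of autosomal windows. By genes the shared gain was larger than by length. Of 705 RefSeq protein-coding genes of the chromosome, 306 (43.4%) lay in a gained segment in 15376T, against 9.05% of autosomal genes. In 14837T 703 of the 705 did, against 21.1%.

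The proximal end was dense in genes and in bins. The 9.17 Mb gained in both lines held 306 of the coding genes and the 48.7 Mb beyond held 399. The 3 gained segments of 15376T had 224, 462 and 212 bins per Mb, while the segments at 2 copies had 67.1, 165 and 78.0. This moved the chromosome mean of 15376T from 0.049 by length to 0.14 by bins, and the share gained from 15.8% of length to 36.3% of bins. In 14837T the means were 0.39 and 0.44. The autosomal segments of at least 1 Mb share a library and a capture design. Across them, the Pearson r between the segment log2 and the log2 of bins per Mb was 0.023 in 15376T (n = 164). In 14837T it was 0.14 (n = 206). Of segments with more than 200 bins per Mb, 5 of 19 were called gained in 15376T, against 31 of all 164 (18.9%). In 14837T, 8 of 25 were, against 52 of all 206 (25.2%). Outside chromosome 19, 2 of 16 such dense segments were gained in 15376T and 6 of 23 in 14837T, with a median log2 of 0.079 and 0.050. The part of bin density in the gain of proximal chromosome 19 was not tested further.

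**Figure D4:**
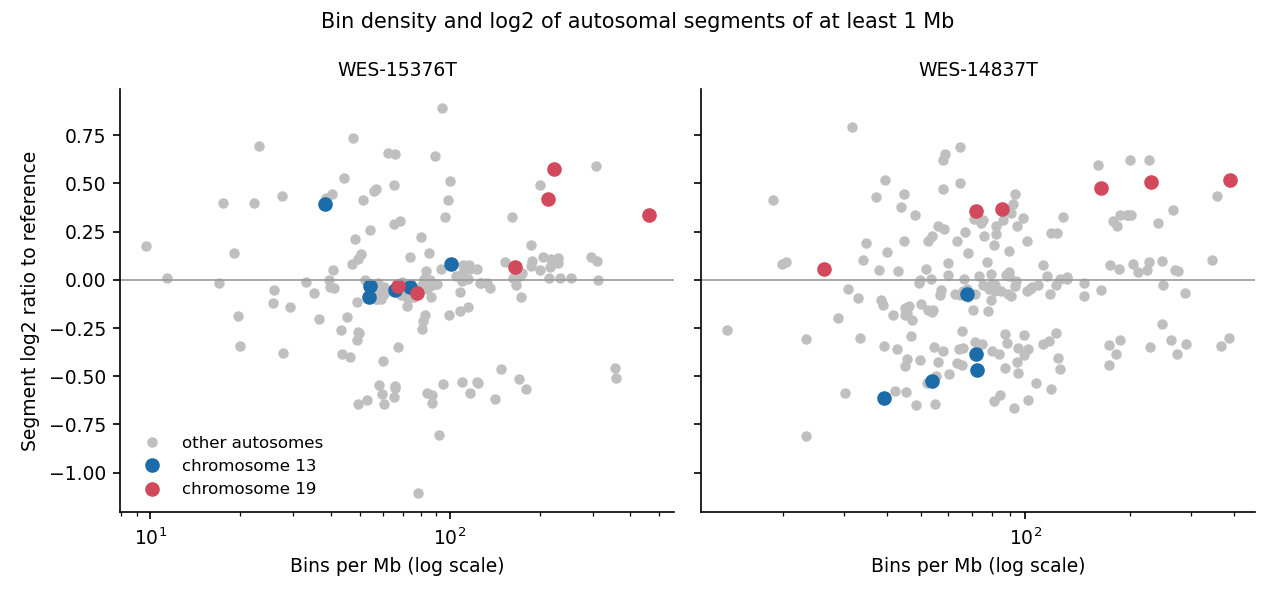
Segment log2 ratio (y axis) against bins per Mb (x axis, log scale) for autosomal segments of at least 1 Mb in 15376T (left) and 14837T (right); blue points are chromosome 13, red points chromosome 19 and gray points the other autosomes. Dense segments lie on both sides of 0 in both lines, and 1 segment with an absolute log2 over 1.2 is not drawn.

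Almost every coding gene of chromosome 19 (99.7%) was gained in 14837T, so a full count there is not particular to any of the lists that follow. In 15376T the share was 43.4%. All 11 genes of the tumor suppressor and apoptosis list were called at 3 copies in 14837T, and 2 of the 11, Men1 and Bad, also in 15376T. Fas, a death receptor gene, and Smarca2, an ATPase of the SWI/SNF complex, were each at -0.030 in 15376T and 0.36 in 14837T. Sufu, a negative regulator of Hedgehog signalling, and Btrc, an F-box protein that marks β-catenin for degradation, were at 0.065 and 0.48. Men1, the gene of menin, was at 0.33 and 0.52. The median over the list was -0.030 in 15376T and 0.37 in 14837T.

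The 18 genes for NF-kB, Jak and Wnt signalling and growth were each at 3 copies in 14837T, and 4 of them, Gstp1, Fosl1, Rela and Vegfb, were also gained in 15376T. Rela, the p65 subunit of NF-kB, was at 0.33 and 0.52. Nfkb2 and Chuk, which encode the p100 precursor and the kinase IKKα of the non-canonical NF-kB branch, were at 0.065 and 0.48. Jak2, a kinase of cytokine receptors, and Dkk1, a secreted Wnt inhibitor, were at -0.030 and 0.36. Tcf7l2, the nuclear partner of β-catenin, and Shoc2, a scaffold of Ras to Raf signalling, were at -0.071 and 0.37.

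Of the 10 immune genes, all were gained in 14837T and 2, Cd5 and Cd6, in 15376T. Cd274, which encodes PD-L1, and the 3 Ifit genes, which are induced by interferon, were at -0.030 and 0.36. The 8 genes of the pancreas list were at 2 copies in 15376T and 3 in 14837T. Hhex, a factor of the early pancreatic bud, was at 0.065 and 0.48, and Pnlip, the gene of pancreatic lipase, was at -0.071 and 0.37. The median difference of the pancreas list was 0.41.

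Among 11 genome maintenance genes, 11 were gained in 14837T and 5 in 15376T. Fen1, a flap endonuclease of replication, was at 0.42 and 0.50, and Kif11, a motor of the mitotic spindle, at 0.065 and 0.48. Among 12 genes of lipid and xenobiotic metabolism the counts were 12 and 5. The fatty acid desaturase genes Fads1, Fads2 and Fads3 were gained in both lines at 0.42 and 0.50, while the stearoyl-CoA desaturase genes Scd1 to Scd4 were at 0.065 and 0.48. The long non-coding RNA genes Malat1 and Neat1 lie in the proximal gain and were at 0.33 and 0.52.

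Families split along the 15376T border here as well. The 10 Slc22a genes, transporters of organic ions, and the 21 Ms4a genes, membrane proteins of immune cells, were gained in both lines. The 19 Cyp2c genes, drug-metabolizing cytochromes, and the 10 genes whose names start with Lip were at 2 copies in 15376T and at 3 in 14837T. The border of 15376T, between Mpeg1 and Dtx4, runs through a cluster of 91 olfactory receptor genes, of which 27 were gained in 15376T and 91 in 14837T. Of the miRNA genes in the RefSeq table, 37 of 37 on chromosome 19 were gained in 14837T, against 20.8% of the 918 on autosomes, and 17 in 15376T, against 8.06%. On chromosome 13, 27 of 32 were lost in 14837T, against 26.7%, and 0 in 15376T, against 24.1%. These counts follow the segment calls of the chromosomes, as those of the coding genes do. The let-7 cluster lies 19.6 Mb past the Sox4 border.

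The borders of chromosome 19 were 5 in each line, and 2 in each were within 0.1 Mb of the other line. One was identical, at a gap of 271 kb without bins between Slc22a12 and Rps6ka4 (chr19:6542785-6814116). The other lies at Htr7, a serotonin receptor gene, where the borders were 0.00235 Mb apart and the step up was 0.095 in 15376T and 0.12 in 14837T. The end of the gain in 15376T, a step of -0.45, had no border in 14837T within 1.38 Mb. The BAF of chromosome 19 was low in both lines, between 0.0284 and 0.111 in 15376T and between 0.0119 and 0.0870 in 14837T. The second allele copy number was 0 in every segment of the chromosome in both lines, in those at 2 copies and in those at 3, so the BAF did not separate gained from other segments.

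The gene table gives each gene its own depth, which can be compared for genes listed in both lines. Being listed needs a segment with an absolute log2 of at least 0.4 in both, so these genes were selected by the segment values, and the segment from Cdk2ap2 to Slc22a12, at 0.33 in 15376T, and the chromosome beyond the shared gain are left out. On chromosome 19, 145 genes were listed in both lines and 99 of them had at least 5 bins. For each, the depth was divided by the 2-copy depth of its library, and the log2 ratio of 14837T to 15376T was taken. The median over the 99 genes was 0.12, and 77 of the 99 (77.8%) were above 0. Over the 1985 autosomal genes treated alike, also listed in both lines, the median was 0.13 and 81.7% were above 0. Their segments differed by a median of 0.11. The 99 genes, all in the shared gain, were thus near that background. Around the segment difference the single genes had an SD of 0.144, close to the 0.148 of those autosomal genes. On chromosome 13 no gene was listed in both lines, and the comparison could not be made there.

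In the block from Rps6ka4 to Ms4a8a, 80 genes had a median of 0.16 with an SD of 0.155, where the segments differed by 0.083. In the block from Ighmbp2 to Cabp2, 19 genes had a median of 0.030 with an SD of 0.090, where the segments differed by -0.059. The genes of either block thus lay above the segment difference, by a median of 0.081 and 0.089, and by a median of 0.039 over the 1985 autosomal genes. Ddb1, a DNA damage sensor with 27 bins, had a depth of 95.0 in 15376T and 98.2 in 14837T, a ratio of 0.0019 on the log2 scale. Gstp1, a glutathione transferase gene, had 87.8 and 107 with a ratio of 0.23, and Fads3 had 62.0 and 78.9 with a ratio of 0.30. Ms4a10 had 46.2 and 76.8 with a ratio of 0.69, and Ms4a15 had 57.6 and 91.8 with a ratio of 0.63, the highest values of the block, while their neighbor Ms4a8a had 83.4 and 90.7 with 0.074.

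**Figure D5:**
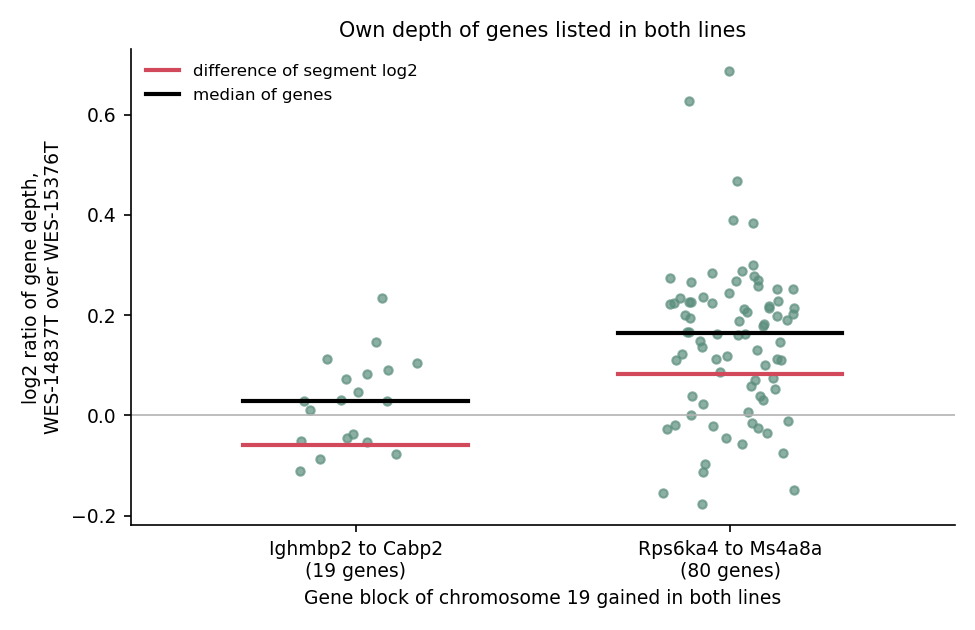
Own depth ratio (y axis, log2 of 14837T over 15376T after division by the 2-copy depth of each library) of genes with at least 5 bins listed in both lines, for the blocks from Ighmbp2 to Cabp2 (19 genes) and from Rps6ka4 to Ms4a8a (80 genes); each point is a gene, black bars are medians and red bars the difference of the segment log2. The medians of 0.030 and 0.16 lie above the segment differences of -0.059 and 0.083, and the spread of single genes is larger than the gap between the bars.

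In the last segment of chromosome 13 in 14837T, the 12 listed genes could be compared only with the library's own 2-copy depth. Tmem267 and 3110070M22Rik shared the same 2 bins with a depth of 17.3. Parp8, a member of the poly-ADP-ribose polymerase family, had 35.7 over 30 bins, and Emb 35.4 over 11. Nnt, the mitochondrial transhydrogenase gene, had 43.1 over 27 bins, and Paip1 46.5 over 11. Against the 2-copy depth of 47.5 these ran from -1.46 for Tmem267 to -0.032 for Paip1 and 0.020 for 4833420G17Rik. Capture differs between genes, and without the same genes in 15376T the order within the segment cannot be told apart from it.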

How the data were processed

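Genomic DNA of the lines 15376T and 14837T was analysed by WES with 1 library per line. The RNA-seq samples and the tail DNA were not analysed here. Per the labels, capture used an Agilent SureSelect human exome kit, whereas the paper's methods name a NimbleGen human exome library. The build mm10 comes from the submitters' processing notes. The columns are those of CNVkit, and the aligner, segmentation program and copy-number reference are not given in the sources used here. The deposited log2 values are ratios of coverage to that reference. The authors' BAF is a fraction from 0 to 1, and the read depth they deposited is an unscaled coverage signal. A weight score was also deposited but has no use here. Integer copy numbers, for the total and for each allele, are those of the authors.

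From these tables segments of both lines were intersected, and means were weighted by length or by bins in Python 3.11.15 (pandas 2.3.3, numpy 2.4.6, scipy 1.17.1, matplotlib 3.10.9). Windows of 1 Mb were kept where both lines covered at least 50%. A gene took the segment that holds its RefSeq midpoint (GRCm38.p6), or else its row in the gene table. The steps were tested on simulated data. The chromosomes, lists and families were chosen with earlier results of these data known. Genes are named where they belong to a list, flank a border, or lie in a segment with 10 or fewer listed genes. The genes of the last chromosome 13 segment other than Isl1, Fgf10 and Tmem267 were named after their values were seen. Autosomal depth averaged 43.4 in 15376T and 47.5 in 14837T. Numbers of reads and of variants per segment are not given, and single values therefore carry no known precision. Some items of the lists and genotype are not reported here.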

Additional observations from a re-analysis of the deposited data

How the results depend on the processing

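Of 68 alternative values for 16 results, 56 moved by less than the spread among segments at 2 copies or, for shares and counts, by at most 1.5 times, and no value called gained or lost changed sign. Of the means near 0, which carry no call, that of chromosome 13 in 15376T changed sign from -0.038 to 0.0021 when the log2 was recentred on the autosomal median, and that of chromosome 19 in 15376T from 0.049 to -0.030 as a length-weighted median. Leaving out segments under 50 bins or 1 Mb removed no segment, so the values under these settings could not move, and they are counted among the 56. Weighting by bins moved the chromosome 19 mean of 15376T to 0.14 and its share gained to 36.3%, because the gained end is densest in bins. With calls at an absolute log2 of 0.5, chromosome 13 was lost over 27.1% in 14837T, and chromosome 19 was gained over 1.88% in 15376T and 13.5% in 14837T. A line difference of 0.5 left 3.09% of chromosome 13 and 1.84% of chromosome 19. Genes with at least 5 bins numbered 270 on chromosome 13 in 14837T and 121 on chromosome 19 in 15376T. An absolute log2 of 0.5 left 155 on chromosome 13 and 283 on chromosome 19 in 14837T, and 26 on chromosome 19 in 15376T. The log2 levels of most changed segments lie between 0.3 and 0.5, so that counts fall at the stricter limit. No paired analysis was possible because there was a single exome library for either line, with no shared replicate number.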
